A study of Rattus norvegicus with 12 samples.

Results

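The xenobiotic enzymes Fmo2, Sult1a1, Aldh1a1, Cyp4b1, Ephx1 and Cyp1a1 were followed through the cells of rat bronchoalveolar lavage fluid (BALF) after lipopolysaccharide (LPS), hypobaric hypoxia or both, and were set beside the epithelial genes Epcam and Foxj1. The series holds 12 microarrays (Affymetrix Rat Genome 230 2.0), 3 for each of 4 groups, and the 6 enzymes are 6 of 12853 genes tested. Each array carried the pooled RNA of several 8-week-old male Sprague-Dawley rats; the labels name 3 rats for 10 of the pools and 2 for COMB pools 1 and 2. COMB rats received LPS at 0.5 mg/kg in the tail vein and then spent 6 h in a decompression chamber at 405.35 mmHg, an altitude of about 5000 m or the equivalent of 11.2% oxygen. LPS rats received the same dose at normal oxygen, HPO rats had the chamber alone, and CTL rats had an injection of saline at normal oxygen. All the animals went without food and water during the experiment, so the groups share that state. Values are the deposited linear intensities of a probe set, a group of array probes for 1 transcript, and each gene is given by its probe set of highest mean.

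Fmo2 and Sult1a1 were chosen by the same HPO and CTL pools that are shown here, since they were among the few genes past the threshold in that contrast, and all 6 were picked with earlier results of these arrays known. Differences between HPO and CTL, and the other differences from CTL, are therefore given as descriptions with no test. How the other 4 were picked is not known, and COMB against LPS may have played a part. For differences between groups, adjusted p-values of the enzymes are given only between COMB and LPS, whose means the HPO against CTL contrast did not compare. They are not independent of the choice, since the fit takes its spread from all 12 arrays. Correlations within groups are also tested over all 12 arrays, HPO and CTL pools among them, so they are not independent of the choice either. The p-values of differences come from limma, fitted to the 4 group means of log2(intensity + 1) on all 12 arrays. Benjamini-Hochberg adjustment was over all probe sets tested, and a call means an adjusted p under 0.05. Log2 differences are given with the standard error (SE) of that fit.

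Enzymes of this kind act in sequence: the first set adds or exposes a reactive group on a fat-soluble molecule, and the second attaches a polar group so that the product can be excreted. Flavin-containing monooxygenases oxidise sulfur and nitrogen atoms, and Fmo2 is the main form in the lung of many mammals. The arrays read RNA, and whether Fmo2 of these rats makes an active enzyme was not measured. The cytochromes P450 Cyp1a1, a target of the aryl hydrocarbon receptor, and Cyp4b1, a lung form that activates several toxins, insert oxygen, and Ephx1 hydrolyses the epoxides that P450 enzymes make. Aldh1a1 oxidises aldehydes, among them retinal to retinoic acid, and Sult1a1 adds sulfate to phenols. In the airway such enzymes are abundant in club cells, and alveolar macrophages carry a set of their own. Epcam is an adhesion protein of epithelial cells, and Foxj1 is the transcription factor that drives the motile cilia programme.

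The promoter windows of the enzymes that moved in opposite ways are shown so that their letters can be set side by side. RefSeq windows on build GRCr8, 250 bases before to 50 after a gene's start, were present for 5 of the 6 enzymes. Capitals mark matches, on either strand, to 6 motifs, and no matches overlapped in the windows shown. The motif of the hypoxia response core was ACGTG, and that of the xenobiotic response core, bound by the aryl hydrocarbon receptor, was GCGTG. The antioxidant response element was searched as TGACNNNGC, and the box bound by the general factor TBP as TATAAA. After the windows had been read, the motif of the factor Sp1 was added as GGGCGG, called a GC box here. The glucocorticoid receptor core was added then too, as AGAACA. Fmo2 and Sult1a1 were higher in HPO pools than in CTL pools, and Cyp4b1 and Ephx1 were lower in LPS pools than in CTL pools. Ephx1 has another window besides the one shown, and which of them serves in BALF cells is not known from these arrays.
Fmo2 (chr13:77777485-77777784, minus strand): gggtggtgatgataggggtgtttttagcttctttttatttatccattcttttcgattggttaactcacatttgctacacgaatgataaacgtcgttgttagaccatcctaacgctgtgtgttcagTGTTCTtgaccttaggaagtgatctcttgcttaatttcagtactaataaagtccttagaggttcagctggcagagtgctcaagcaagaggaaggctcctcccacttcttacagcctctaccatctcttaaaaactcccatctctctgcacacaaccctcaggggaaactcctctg
Sult1a1 (chr1:190706063-190706362, minus strand): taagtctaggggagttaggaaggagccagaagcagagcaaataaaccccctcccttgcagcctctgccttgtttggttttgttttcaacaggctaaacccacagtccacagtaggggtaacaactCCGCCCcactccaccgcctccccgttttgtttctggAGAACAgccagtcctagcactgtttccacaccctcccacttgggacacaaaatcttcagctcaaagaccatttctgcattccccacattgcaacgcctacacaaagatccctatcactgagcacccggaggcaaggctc
Cyp4b1 (chr5:134393067-134393366, minus strand): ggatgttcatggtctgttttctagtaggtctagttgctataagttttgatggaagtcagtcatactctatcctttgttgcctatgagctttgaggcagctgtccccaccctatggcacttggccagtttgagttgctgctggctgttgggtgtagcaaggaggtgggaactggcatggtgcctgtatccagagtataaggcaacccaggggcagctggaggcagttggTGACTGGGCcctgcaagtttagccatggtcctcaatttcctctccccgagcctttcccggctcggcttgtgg
Ephx1 (chr13:95263068-95263367, minus strand): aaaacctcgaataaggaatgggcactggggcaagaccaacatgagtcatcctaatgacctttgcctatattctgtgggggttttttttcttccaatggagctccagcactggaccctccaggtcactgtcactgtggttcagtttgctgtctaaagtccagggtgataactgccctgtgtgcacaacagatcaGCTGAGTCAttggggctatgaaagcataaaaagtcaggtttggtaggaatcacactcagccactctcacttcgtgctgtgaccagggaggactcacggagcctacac

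The Fmo2 window held 1 match, a glucocorticoid receptor core that begins 125 bases before the start, and no match to the other 5 motifs. Sult1a1 held the same core 89 bases before the start and a GC box 125 bases before it. Cyp4b1 held an antioxidant element 22 bases before the start, and the Ephx1 window shown held one on the other strand, 57 bases before the start. The Ephx1 window not shown held no antioxidant element but a glucocorticoid receptor core 125 bases before the start, the distance of the Fmo2 match but on the opposite strand, and a GC box 25 bases before it. The Aldh1a1 window, which is not shown, held no match to any motif searched. Aldh1a1 too was higher in HPO pools than in CTL pools. The windows of Fmo2, Sult1a1, Cyp4b1 and Aldh1a1 and both windows of Ephx1 held neither ACGTG nor GCGTG, while the Epcam window held 1 of each. Among all 33469 windows of this length, ACGTG was in 19.3%, GCGTG in 29.7%, TGACNNNGC in 12.1%, TATAAA in 14.2%, GGGCGG in 33.1% and AGAACA in 20.7%. A match is only a run of letters, and binding was not measured. A link between these motifs and the direction of change was not tested. The glucocorticoid receptor core was chosen after the windows had been read, and no reason is given for which Ephx1 window was shown.

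Fmo2, Sult1a1 and Aldh1a1 were higher when LPS and hypoxia were combined, Cyp4b1 and Ephx1 were lower wherever LPS had been given, and Cyp1a1 stayed at the low end of the arrays. Fmo2 had intensities of 335, 193 and 149.5 in COMB pools 1 to 3, 56.8, 54.2 and 90.8 in LPS pools, 218, 212 and 205 in HPO pools, and 38.2, 41.8 and 46.7 in CTL pools. COMB and HPO pools were all above the LPS and CTL pools, and COMB and HPO pools overlapped. The mean was 226 ± 97.0 in COMB, 67.3 ± 20.4 in LPS, 212 ± 6.58 in HPO and 42.2 ± 4.26 in CTL (SD, n = 3 pools each). Between COMB and LPS the log2 difference was 1.69 ± 0.26 (SE), a 3.23-fold higher level (limma, adjusted p = 0.00216). Against CTL the log2 differences were 2.31 ± 0.26 in COMB, 0.62 ± 0.26 in LPS and 2.30 ± 0.26 in HPO.

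On this probe set Fmo2 was about level in COMB and HPO, with a log2 difference of 0.01 ± 0.26. This depended on the probe set. Another Fmo2 probe set, which also names Fmo2 alone, read 223, 152 and 106 in COMB pools, 57.1, 56.2 and 79.4 in LPS pools, 94.1, 89.3 and 84.7 in HPO pools, and 35.8, 45.9 and 41.1 in CTL pools. On it COMB exceeded HPO by 0.77 ± 0.22 and HPO exceeded CTL by 1.11 ± 0.22 (log2), and COMB exceeded LPS by 1.26 ± 0.22 (limma, adjusted p = 0.00452). The remaining one, a dim probe set, spanned 15.96 to 27.8 over the 12 arrays and gave 0.51 ± 0.11 between COMB and LPS (limma, adjusted p = 0.0112). All 3 probe sets thus placed COMB above LPS, by different amounts.

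Sult1a1 was highest in COMB and lowest in CTL. Its intensities were 326, 186 and 179.5 in COMB pools, 86.2, 95.9 and 133 in LPS pools, 122, 125 and 147 in HPO pools, and 41.6, 46.2 and 42.6 in CTL pools. Every COMB pool lay above every pool of the other groups, every CTL pool lay below them, and LPS and HPO overlapped. COMB averaged 231 ± 82.5 and LPS 105 ± 24.6 (SD, n = 3 pools each), a log2 difference of 1.10 ± 0.21 (limma, adjusted p = 0.00727). COMB exceeded HPO by 0.76 ± 0.21, and the differences from CTL were 2.33 ± 0.21 in COMB, 1.23 ± 0.21 in LPS and 1.57 ± 0.21 in HPO. When only the 6 arrays of COMB and LPS were fitted, so that HPO and CTL pools lent no spread, the Sult1a1 call was lost (limma, adjusted p = 0.0525), while Fmo2 (adjusted p = 0.0302) and Aldh1a1 (adjusted p = 0.0314) were called.

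Aldh1a1 had intensities of 1109, 1053 and 539 in COMB pools, 341, 226 and 328 in LPS pools, 454, 315 and 544 in HPO pools, and 289.9, 253 and 219 in CTL pools. COMB pool 3 lay just below the highest HPO pool, the other COMB pools lay far above it, and LPS and CTL overlapped. COMB averaged 900.4 ± 314 and LPS 298 ± 63.3 (SD, n = 3 pools each), a log2 difference of 1.54 ± 0.28 (limma, adjusted p = 0.00501). Against CTL the difference was 1.76 ± 0.28 in COMB, 0.22 ± 0.28 in LPS and 0.76 ± 0.28 in HPO. These 3 enzymes were called higher and none of the 6 was called lower between COMB and LPS, where 8.64% of all genes tested were called higher and 5.04% lower. The 3 calls held when each pool in turn was left out, and none of them held under the probe set by probe set test named in the study's methods after the same adjustment (adjusted p of 0.145 for Fmo2, 0.180 for Sult1a1 and 0.148 for Aldh1a1).

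**Figure D1:**
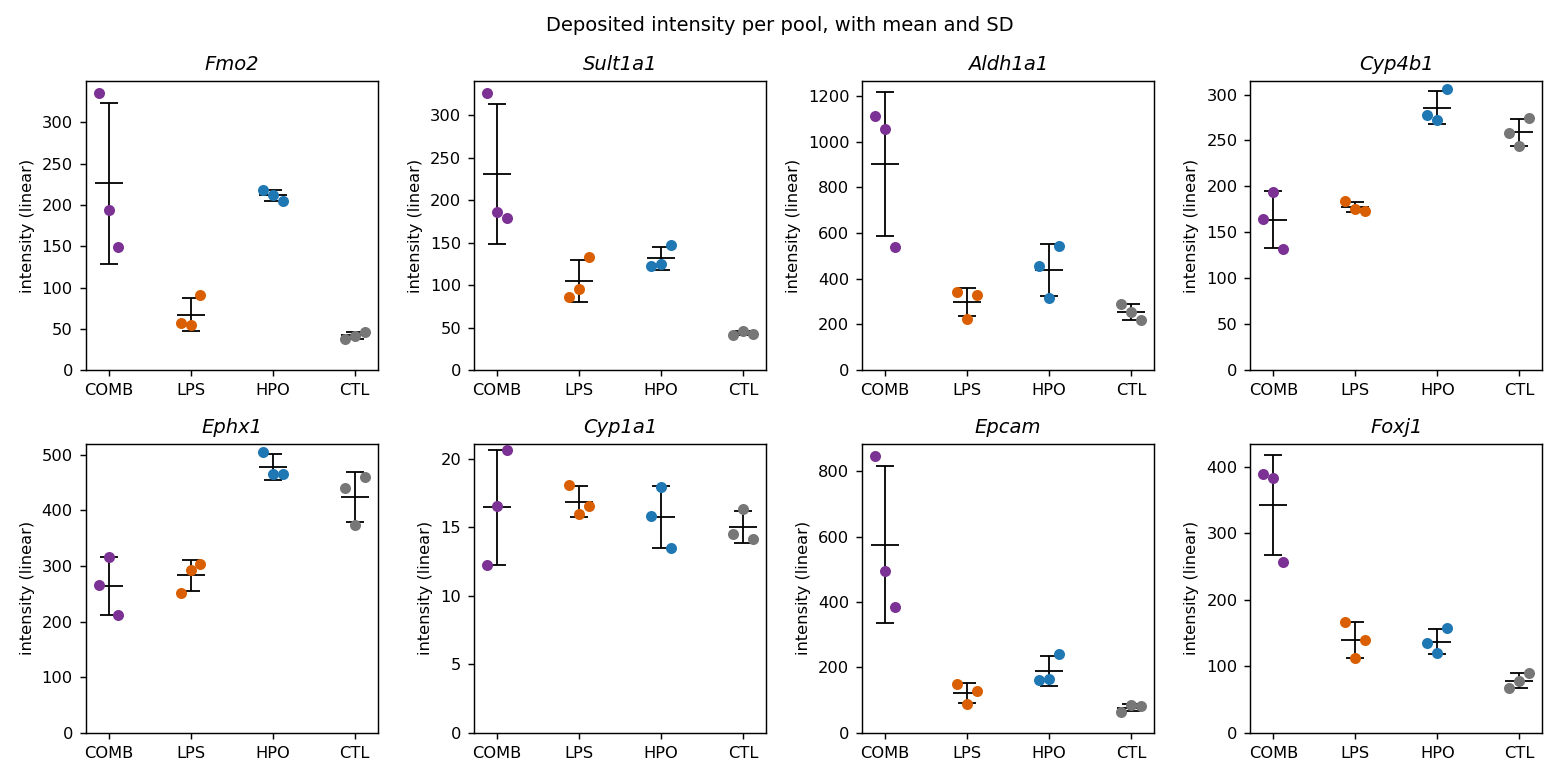
Deposited linear intensity of the 6 enzymes and of Epcam and Foxj1 in each pool (points), with the group mean (long bar) and SD (capped line), for COMB, LPS, HPO and CTL, n = 3 pools each. Fmo2, Sult1a1 and Aldh1a1 are highest or joint highest in COMB, Cyp4b1 and Ephx1 are low in both groups that had LPS, and Cyp1a1 lies between 12.2 and 20.6 throughout.

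Cyp4b1 had intensities of 165, 194 and 132 in COMB pools, 184, 175 and 173 in LPS pools, 278, 273 and 306 in HPO pools, and 258, 244 and 274 in CTL pools. Every pool that had LPS was below every pool that had not. The log2 difference from CTL was -0.67 ± 0.12 in COMB, -0.54 ± 0.12 in LPS and 0.14 ± 0.12 in HPO. Ephx1 had intensities of 266, 315 and 211 in COMB pools, 252, 293 and 304 in LPS pools, 505, 464 and 465 in HPO pools, and 439, 374 and 459.5 in CTL pools. It split the pools in the same way, with log2 differences from CTL of -0.69 ± 0.14 in COMB, -0.58 ± 0.14 in LPS and 0.18 ± 0.14 in HPO. Between COMB and LPS neither was called: the difference was -0.13 for Cyp4b1 (95% interval -0.40 to 0.14, limma adjusted p = 0.522) and -0.11 for Ephx1 (95% interval -0.42 to 0.20, limma adjusted p = 0.642). Set against HPO, COMB was lower by -0.81 ± 0.12 for Cyp4b1 and by -0.87 ± 0.14 for Ephx1.

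Cyp1a1 ranged from 12.2 to 20.6 over the 12 arrays, between the 24.6th and 38.0th percentile of its own array, so little signal above the dim end was there to compare. Its intensities were 12.2, 16.6 and 20.6 in COMB pools and 18.1, 15.96 and 16.6 in LPS pools, a log2 difference of -0.06 (95% interval -0.41 to 0.29, limma adjusted p = 0.840). Its aryl hydrocarbon receptor regulators Ahr and Arnt, among the other genes tested, were not called between COMB and LPS either, with log2 differences of -0.40 and -0.15.

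Counting the enzymes whose pools did not overlap those of CTL gave 3 of 6 higher in COMB (17.6% of all genes were) and 2 of 6 lower (22.1% of all genes). In LPS pools 2 of 6, Fmo2 and Sult1a1, lay fully above CTL (12% of all genes) and 2 of 6, Cyp4b1 and Ephx1, fully below (18.7% of all genes). In HPO pools 4 of 6, Fmo2, Sult1a1, Aldh1a1 and Ephx1, lay fully above CTL (8.19% of all genes), but this contrast had chosen Fmo2 and Sult1a1. Between COMB and HPO, 1 of 6, Sult1a1, lay fully above (13.9% of all genes) and 2 of 6, Cyp4b1 and Ephx1, fully below (17% of all genes). Fmo2 overlapped there on its brightest probe set, which these counts use, and lay fully above on the other 2. In LPS against CTL its dim probe set overlapped. Among the log2 differences of all 12853 genes between HPO and CTL, Fmo2 had rank 2 from the top and Sult1a1 rank 21. The 4 genes past the threshold in that contrast were Fmo2, Sult1a1, Farp1 (log2 difference 0.77) and Wfdc2 (1.44), and those just outside it were Rai14 (1.19) and Hells (-0.72).

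On the log2 scale the separate LPS and HPO differences of Fmo2 on its brightest probe set summed to 2.93, beside a measured 2.31 in COMB, and those of Sult1a1 summed to 2.80, beside 2.33. For Aldh1a1 the sum was 0.98 and the measured value 1.76. The measured value minus the sum was -0.61 ± 0.36 for Fmo2, -0.47 ± 0.30 for Sult1a1 and 0.79 ± 0.39 for Aldh1a1, against 0.90 ± 0.39 for Epcam and 0.48 ± 0.27 for Foxj1 (SE of the fit, no test). For Fmo2 the sign turned with the probe set: the other 2 probe sets gave 0.15 ± 0.32 and 0.26 ± 0.15, on the same side of 0 as Aldh1a1.

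**Figure D2:**
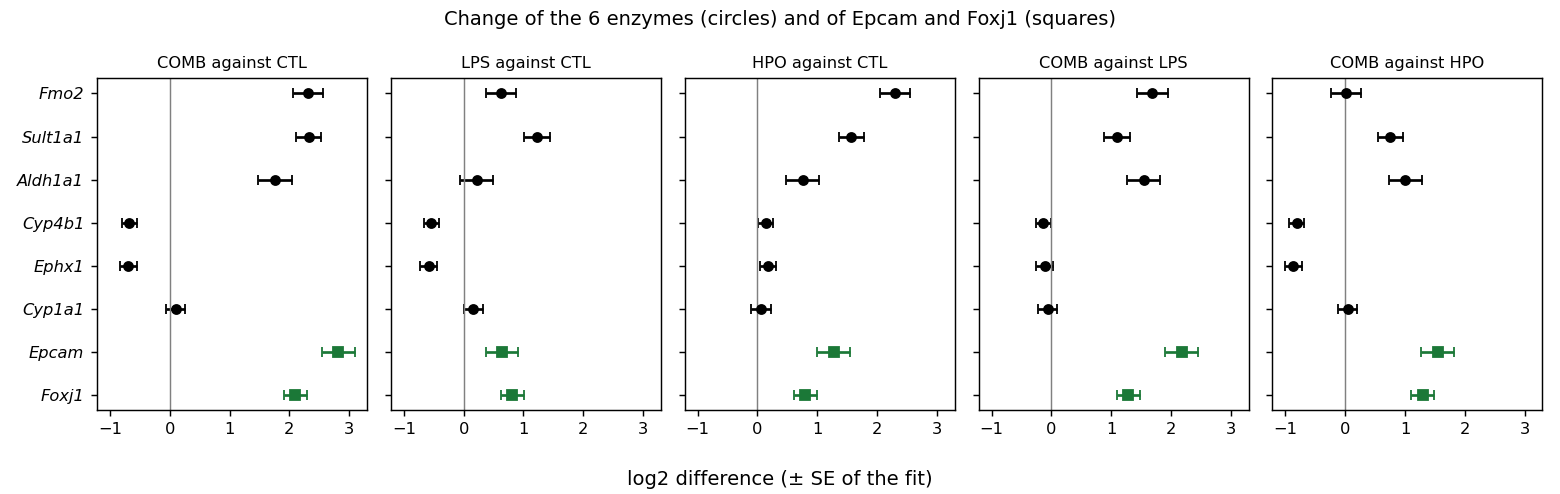
Log2 difference of the 6 enzymes (circles) and of Epcam and Foxj1 (squares) in 5 comparisons, with horizontal bars for the SE of the fit. Fmo2, on its brightest probe set, lies at 2.30 in HPO against CTL, where Epcam lies at 1.27, and at 0.01 in COMB against HPO, where Epcam lies at 1.54; on another probe set Fmo2 lies at 1.11 and 0.77.

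Epcam and Foxj1 were both higher in COMB than in any other group. Epcam had intensities of 845, 495.5 and 385 in COMB pools, 149.5, 88.3 and 129 in LPS pools, 162, 164.5 and 241 in HPO pools, and 64.9, 84.2 and 81.1 in CTL pools. Foxj1 had 388, 382 and 256 in COMB pools, 166, 112 and 139 in LPS pools, 135, 119 and 157 in HPO pools, and 67.0, 77.7 and 89.9 in CTL pools. COMB stood fully above the other groups for both genes, and CTL fully below. Between COMB and LPS, Epcam differed by 2.18 ± 0.27 (limma, adjusted p = 0.000979) and Foxj1 by 1.28 ± 0.19 (limma, adjusted p = 0.00196) on the log2 scale.

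The enzymes were then set against these genes pool by pool, as log2 enzyme minus log2 epithelial gene. In HPO against CTL, the contrast that chose Fmo2, the difference of differences on its brightest probe set was 1.03 against Epcam and 1.50 against Foxj1. On the other 2 probe sets it was -0.16 and -1.03 against Epcam and 0.31 and -0.56 against Foxj1, so whether Fmo2 differed by more or less than these genes turned with the probe set. In COMB against HPO the Fmo2 difference was -1.53 against Epcam and -1.29 against Foxj1 with no overlap of pools, and it lay between -1.25 and -0.52 on the other 2 probe sets. In COMB against LPS, Fmo2 on its brightest probe set differed from Epcam by -0.49 (exact two-sided permutation p = 0.4) and from Foxj1 by 0.41 (exact permutation p = 0.4). The smallest p that 3 pools against 3 can give is 0.1. This too depended on the probe set. On the other 2 Fmo2 itself differed by 1.26 and 0.51 in COMB against LPS, beside 2.18 for Epcam and 1.28 for Foxj1. Those 2 probe sets were not tested against the epithelial genes. Sult1a1 changed less than Epcam there (-1.08, pools apart, exact permutation p = 0.1), and its difference from Foxj1 was -0.19 (exact permutation p = 0.5). Aldh1a1 changed less than Epcam (-0.64, pools apart, exact permutation p = 0.1) and differed from Foxj1 by 0.26 (exact permutation p = 0.2). Cyp4b1, Ephx1 and Cyp1a1 differed from both genes by between -2.31 and -1.34, with pools apart (exact permutation p = 0.1 each). Of the 12 pairs of enzyme and epithelial gene, 8 had no overlap between COMB and LPS. Epcam and Foxj1 themselves lay fully higher in COMB, so a gene that changed little can be apart by this measure. The pairs of Cyp4b1, Ephx1 and Cyp1a1 are of that kind. The share of all genes apart in this way was not taken, so the count says little about the enzymes.

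**Figure D3:**
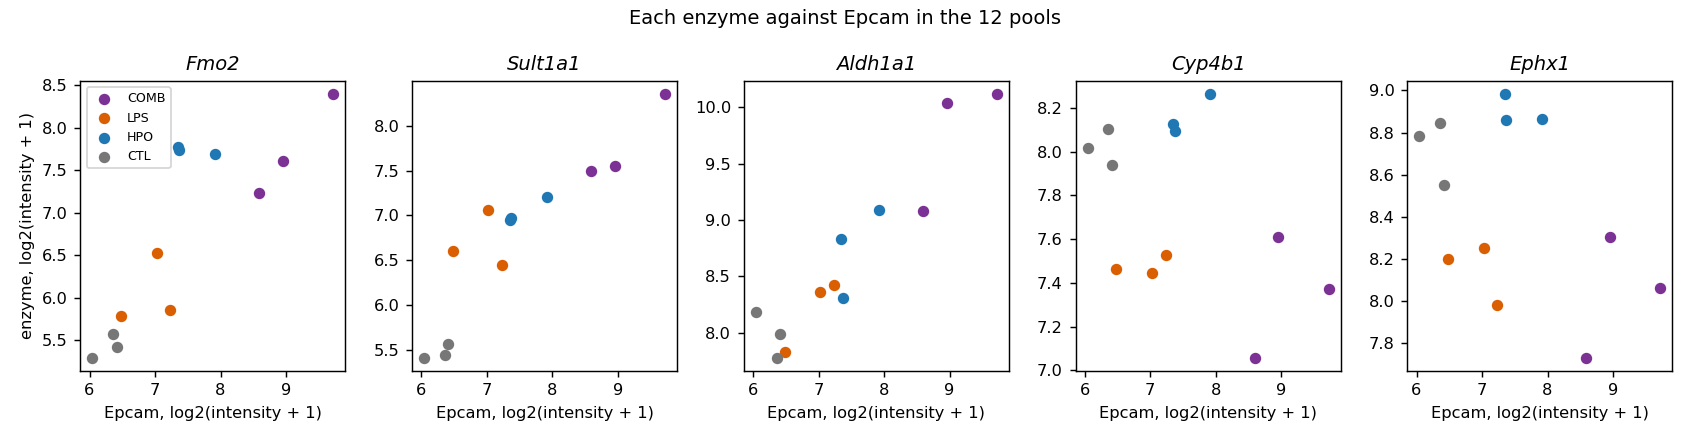
Each of 5 enzymes against Epcam in the 12 pools, both axes as log2(intensity + 1), coloured by group. Sult1a1 and Aldh1a1 rise with Epcam from CTL to COMB. For Sult1a1 the LPS pools scatter: LPS pool 2 reads 95.9 and CTL pool 2 reads 46.2 at a similar Epcam. The HPO pools of Fmo2 (its brightest probe set) sit at the height of the COMB pools at a lower Epcam, and Cyp4b1 and Ephx1 are low in LPS and COMB at any Epcam.

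Because the groups form clusters, the relation was also taken within groups, over the deviations of the 12 pools from their group means. The 12 relations of 6 enzymes with 2 genes were tested by all 1296 permutations within groups, and none passed after Benjamini-Hochberg adjustment. Aldh1a1 and Cyp4b1 had the highest r, both with Foxj1. For Aldh1a1 the relation had an unadjusted p under 0.05 (r = 0.75, exact permutation p = 0.0370, adjusted 0.222, and Spearman rho = 0.64, exact permutation p = 0.0494, adjusted 0.222), and without the 2 pools farthest from the median of Foxj1 r was 0.47. Cyp4b1, whose mean was lowest in COMB where that of Foxj1 was highest, had a positive r with Foxj1 inside the groups that did not pass adjustment (r = 0.74, exact permutation p = 0.0208, adjusted 0.222, rho = 0.69, exact permutation p = 0.0332, adjusted 0.222, and r = 0.61 without those pools). With Epcam, r was 0.69 for Fmo2 (exact permutation p = 0.144, adjusted 0.313, rho = 0.52), 0.69 for Sult1a1 (exact permutation p = 0.154, adjusted 0.313, rho = 0.63) and 0.71 for Aldh1a1 (exact permutation p = 0.0864, adjusted 0.313, rho = 0.71). Without the 2 pools farthest from the Epcam median these were 0.28, 0.34 and 0.52. Ephx1 had r = 0.03 with Epcam (exact permutation p = 0.973, adjusted 0.973, rho = -0.06). Single pools moved the relations with Epcam: without COMB pool 1 r was 0.31 for Sult1a1 (exact permutation p = 0.562, adjusted 0.762) and 0.35 for Fmo2 (exact permutation p = 0.572, adjusted 0.762). Without LPS pool 1 r was 0.94 for Sult1a1 over 11 pools (exact permutation p = 0.00231, adjusted 0.0278), the one relation to pass under any pool left out. The relations with Foxj1 moved too. For Cyp4b1 r with Foxj1 was 0.48 without COMB pool 3 (exact permutation p = 0.0972, adjusted 0.583) and 0.78 without CTL pool 1. For Aldh1a1 it was 0.54 without COMB pool 3 (exact permutation p = 0.206, adjusted 0.618) and 0.90 without CTL pool 1.

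Markers of several cell types moved with these groups, and their part in the enzymes' values was not tested. Fewer cells of a type and less RNA per cell cannot be told apart in pooled lavage cells. Of 12 general epithelial markers, among them Epcam, Cdh1 and Krt7, 10 were called higher and 1, Krt7, lower in COMB against LPS, and their summed intensity was 2964 to 5441 in COMB pools and 1523 to 2185 in LPS pools. All 7 ciliated cell markers tested, among them Foxj1, Tekt1 and Tekt4, were called higher in COMB against LPS, with sums of 1887 to 2941 in COMB and 800.8 to 1082 in LPS. Of 8 club and secretory markers, 6 were called higher in COMB against LPS (sums 26610 to 36790 in COMB and 17770 to 20180 in LPS), while Scgb1a1 and Scgb3a1 were not. In HPO against CTL none of these 27 markers was called, although 26 lay above 0, with sums of club and secretory markers of 18510 to 20340 in HPO and 7607 to 11130 in CTL. T and NK cell markers, 5 of 7 called higher in COMB against LPS, summed to 973.6 to 6105 in COMB pools and 495.5 to 770.1 in LPS pools. Neutrophil markers, S100a8, S100a9 and Csf3r first, summed to 6545 to 11250 in COMB, 2142 to 2828 in LPS, 300.5 to 483.8 in HPO and 483.9 to 2994 in CTL, with 1 of 7 called higher in COMB against LPS and 6 higher and 1 lower in COMB against HPO. Alveolar type 2 markers, Sftpc, Sftpb and Sftpa1 first, summed to 2685 to 3804 in COMB and 1779 to 1973 in LPS, with 2 of 9 called higher. In LPS against CTL, where Sult1a1 pools lay above CTL, 5 of 8 club and secretory markers and 2 of 7 ciliated markers were called higher.

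The labelled source, lavage cells, showed its macrophage markers on every array: the 7 markers tested, with Mrc1, Fabp4 and Pparg first, summed to 16200 to 17810 in COMB, 19920 to 21530 in LPS, 18930 to 19060 in HPO and 18040 to 19620 in CTL. This sum was higher in LPS than in CTL and lower in COMB than in CTL, while Cyp4b1 and Ephx1 were lower in both. A link between the sum and these enzymes was not tested. Of the 7 markers only Pparg was called lower in LPS against CTL (log2 difference -0.77 ± 0.12, limma, adjusted p = 0.0120). In COMB against CTL 2 were called lower and 1 higher. In COMB against LPS, Fabp4, Pparg and Lpl were called lower and Car4 higher.

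The other genes of xenobiotic metabolism were taken from a list of 125 in 12 roles, of which 114 had a probe set naming them alone and 100 were tested. In COMB against LPS, 16 were called higher and 2 lower, with a median log2 difference of 0.11, against 0.0048 over all genes, of which 8.64% were called higher and 5.04% lower. These counts stood on 3 LPS pools: without LPS pool 1, 2 or 3 the calls numbered 9, 9 and 10 in all. The higher ones were led by the club cell P450 Cyp2f4 (2.32 ± 0.44, limma, adjusted p = 0.00675), the aldehyde dehydrogenase Aldh3a1 (1.82 ± 0.42, adjusted p = 0.0161), the glutathione transferases Gsta3 (1.70 ± 0.35, adjusted p = 0.0101) and Gstp1 (1.70 ± 0.16, adjusted p = 0.000249), and the flavin monooxygenase Fmo5 (1.44 ± 0.34, adjusted p = 0.0194). The lower ones were the arylamine acetyltransferase Nat1 (-0.88 ± 0.10, adjusted p = 0.000634) and the nuclear receptor Rxra (-0.44 ± 0.10, adjusted p = 0.0151). By role, 6 of 16 glutathione transferases, 3 of 17 reductases, oxidases and esterases, 2 of 9 alcohol and aldehyde dehydrogenases, 1 of 3 flavin monooxygenases, 1 of 7 sulfotransferase genes, 1 of 17 P450 enzymes, 1 of 3 glucuronosyltransferase genes (Ugdh, 0.35 ± 0.10, adjusted p = 0.0432) and 1 of 10 sensors (Nfe2l2) were called higher. The sulfotransferase gene called was Papss2, which makes the sulfate donor that Sult1a1 uses (1.38 ± 0.25, adjusted p = 0.00468); Sult1b1 and Sult1c3 had differences of 1.55 and 1.29 and did not pass.

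Cyp2f4 had intensities of 735, 356 and 219 in COMB pools, 68.7, 47.1 and 139 in LPS pools, 405, 420.5 and 667 in HPO pools, and 236, 132 and 159 in CTL pools. Its HPO and COMB pools overlapped, as those of Fmo2 did on its brightest probe set only. The LPS mean of Cyp2f4, 84.8 ± 47.8, lay below its CTL mean of 176 ± 54.1, and neither difference from CTL in the single exposures passed. Gstp1 averaged 974 ± 171 in COMB, 297 ± 6.29 in LPS, 398 ± 38.5 in HPO and 269.6 ± 59.8 in CTL (SD, n = 3 pools each), with all COMB pools above all others.

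In COMB against CTL, 19 of the 100 were called higher and 11 lower, at a background of 11% in each direction (11% higher and 11% lower of all genes); without CTL pool 1 or CTL pool 3 the calls numbered 19 in all. The carboxylesterase Ces1d (2.19 ± 0.35, limma, adjusted p = 0.00118), Gsta3 (2.13 ± 0.35, adjusted p = 0.00148), the paraoxonase Pon3 (2.07 ± 0.31, adjusted p = 0.000858), Gsta1 (1.91 ± 0.22, adjusted p = 0.000185) and Gstp1 (1.86 ± 0.16) led the higher ones. The arsenic methyltransferase As3mt (-1.28 ± 0.17, adjusted p = 0.000438), the carbonyl reductase Cbr4 (-0.96 ± 0.20), Nat1 (-0.75 ± 0.10), the P450 Cyp2u1 (-0.68 ± 0.18) and the microsomal glutathione transferase Mgst3 (-0.58 ± 0.17) led the lower ones.

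In LPS against CTL, 2 of the 100 were called higher and 3 lower, where 1.24% of all genes were called higher and 1.54% lower. The calls numbered 1 without CTL pool 1, CTL pool 3 or LPS pool 3, 2 without LPS pool 1 or 2, and 3 without HPO pool 1, against 24 with array weights (7 higher and 17 lower). Gsta1 (1.28 ± 0.22, limma, adjusted p = 0.0182) and Xdh, which makes urate (1.15 ± 0.20, adjusted p = 0.0186), were the higher ones. Aldh3b1, an aldehyde dehydrogenase (-0.74 ± 0.10, adjusted p = 0.00462), As3mt (-0.77 ± 0.17, adjusted p = 0.0437) and Mgst2 (-0.44 ± 0.09, adjusted p = 0.0339) were the lower ones. In HPO against CTL none of the 100 was called in either direction, where 0.0311% of all genes were called higher and 0% lower. With array weights, which give less weight to variable arrays, 15 of the 100 were called (11 higher and 4 lower). Those weights were 6.38, 0.738 and 0.226 for HPO pools 1 to 3 and 0.76, 0.759 and 4.12 for CTL pools 1 to 3. The weighted calls in HPO against CTL thus lean on 1 array in each group, and those in LPS against CTL on the same CTL array. At an unadjusted p under 0.05, 1129 of all 12853 genes passed in HPO against CTL in the fit without weights. The P450 enzymes Cyp3a9 and Cyp2f4, picked after their values were seen, had differences of 1.62 ± 0.37 and 1.50 ± 0.44 there without passing, and without COMB pool 1 in the fit 2 of the 100 were called higher.

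In COMB against HPO, 12 of the 100 were called higher and 12 lower, beside 9.18% and 9.36% of all genes. The aldo-keto reductase Akr1b8 (1.81 ± 0.40, limma, adjusted p = 0.0100), Gsta3 (1.46 ± 0.35), Gstp1 (1.28 ± 0.16), Fmo5 (1.24 ± 0.34) and Gsta1 (1.13 ± 0.22) were the 5 highest. As3mt (-1.12 ± 0.17), Cbr4 (-0.79 ± 0.20), Cyp2u1 (-0.74 ± 0.18), Nat1 (-0.69 ± 0.10) and Mgst3 (-0.68 ± 0.17) were the 5 lowest. The LPS and COMB comparisons with CTL, and those of COMB with LPS and HPO, share pools, so their lists are not independent of each other.

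**Figure D4:**
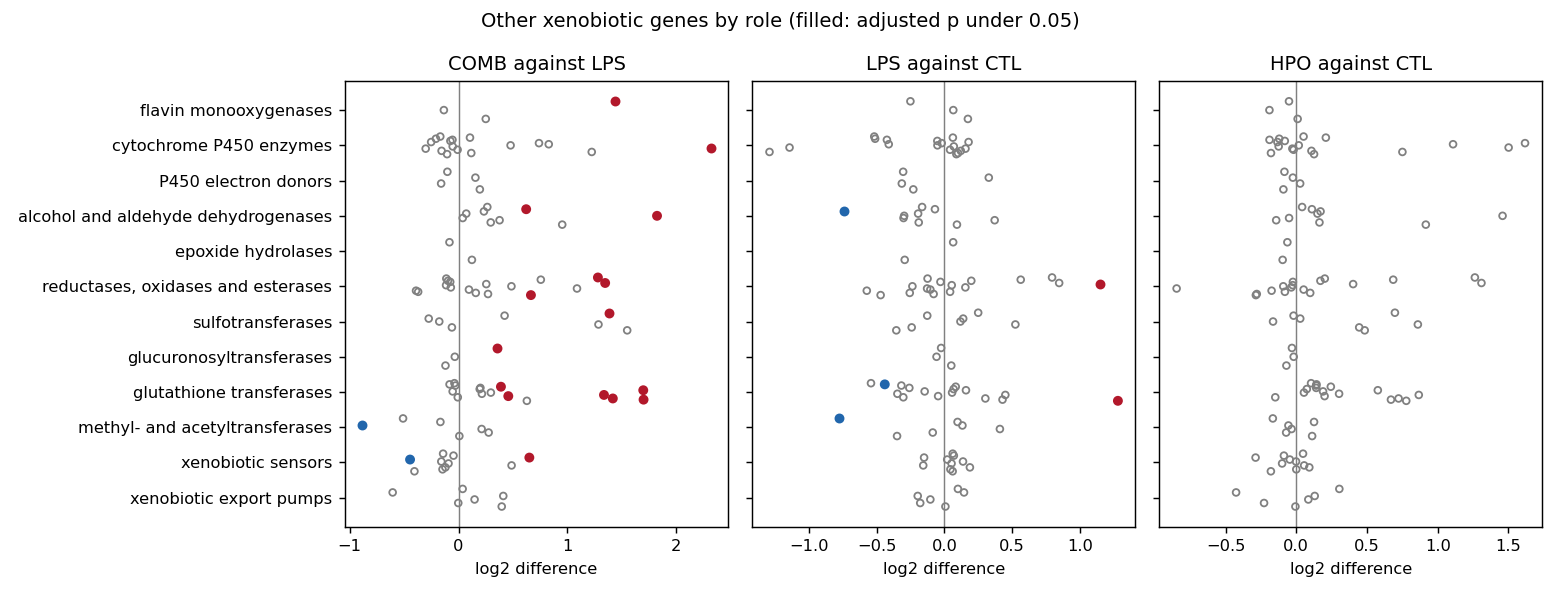
Log2 difference of the 100 other xenobiotic genes by role (rows) in COMB against LPS, LPS against CTL and HPO against CTL; filled points passed the adjusted threshold (red higher, blue lower) and open points did not. In COMB against LPS 16 points are red and 2 blue, in LPS against CTL 2 are red and 3 blue, and in HPO against CTL none is filled.

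The genes whose levels went most nearly with each enzyme over the 12 pools were ranked by Pearson r on the log2 scale, as a description with no test, in which the differences between groups take part. For Fmo2 they were Cbx6 (r = 0.94), Selenbp1 (0.93) and Nisch (0.93), with Epcam in place 75 (0.84). For Sult1a1 they were Tc2n (0.97), Mal2 (0.96) and Nupr1 (0.96), with Epcam in place 22 (0.91) and Foxj1 in place 46 (0.90). For Aldh1a1 they were Tst (0.97), Gstm2 (0.97) and Lypd2 (0.97), with Epcam in place 28 (0.95). For Cyp4b1 they were Tab3, Tafa3 and Mrgprx3 (0.98 each), and for Ephx1 Tab3 (0.98), Map4k2 (0.97) and Zfand6 (0.97), with r of -0.45 and -0.46 for Epcam. Dclk2 (0.89), Rp9 (0.88) and Kcnv1 (0.88) came first for the dim Cyp1a1. Among the enzymes themselves, Cyp4b1 and Ephx1 went together (r = 0.97), as did Fmo2 and Sult1a1 (0.89), and Fmo2 and Cyp4b1 did not (-0.08).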

How the data were processed

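Total RNA of BALF cells was pooled within groups and hybridised to 12 Affymetrix Rat Genome 230 2.0 arrays. The deposited values are linear intensities, 1 per probe set and array; the study's methods name MAS 3.0, Transcriptome Analysis Console, R and GeneSpring, and the normalization method is not given in the sources used here. Array medians of 32.7 to 35.6 were close, and no pair of arrays was identical. The number of arrays limits the precision. The p-values of differences set a difference between group means against the spread between pools, which is not the spread between animals.

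Of 31099 probe sets, 57 controls were left out. By the platform annotation 20826 named 1 gene, 436 several and 9780 none. A probe set was kept if at least 3 arrays had it over that array's 20th percentile (25692), as log2(intensity + 1), and a gene was given by its probe set of highest mean among those naming it alone (12853 genes). The fit was limma 3.58.1 in R 4.3.3, with 4 group means and Benjamini-Hochberg adjustment at 0.05. The fit and the correlation test were tested on simulated data. The members, gene lists and tests were chosen with earlier results of these data known.

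The text names the 6 enzymes, Epcam and Foxj1, up to 5 list genes called in each direction per comparison, the first 3 measured markers of the lists it uses, and the 3 genes most like each enzyme. Ahr, Arnt, Papss2, Sult1b1, Sult1c3, Cyp3a9, Lpl, Car4, Ugdh, Nfe2l2 and Nqo1 fall outside that rule and were chosen after their values were seen. Alternatives were another pseudocount, quantile normalization, other filters, array weights, fits of 2 groups, the methods' t-test, list means in place of Epcam and Foxj1, and leaving out each pool.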

Additional observations from a re-analysis of the deposited data

Results flagged for a closer look

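Nat1, an arylamine acetyltransferase, was the only one of the 100 other xenobiotic genes whose response to hypoxia differed between rats with and without LPS by a test of the difference itself. Its interaction term was -0.83 ± 0.14 on the log2 scale (limma, adjusted p = 0.0497, just inside the threshold). Its intensities were 171, 165 and 162 in COMB pools, 298, 289 and 335 in LPS pools, 271, 257 and 280.4 in HPO pools, and 292, 249 and 301 in CTL pools. COMB lay fully below the other groups, LPS lay fully above HPO, and CTL overlapped both. Rats carry near-identical copies of this gene, and which of them the probe set reads was not tested.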

How the results depend on the processing

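The calls of Fmo2 and Aldh1a1 between COMB and LPS held under pseudocount 16, quantile normalization, median centring, no filter, the 40th percentile filter, array weights, a trended robust fit and the fit of 2 groups, and so did that of Sult1a1 except in the fit of 2 groups. Under the methods' t-test, adjusted, 0 of the 6 enzymes was called, and of the 100 list genes 1 was called in COMB against CTL, 0 in LPS against CTL, 0 in COMB against LPS and 0 in COMB against HPO. With array weights the list had 24 calls in LPS against CTL and 15 in HPO against CTL. These calls lean on CTL pool 3 and, in HPO against CTL, on HPO pool 1, which had the largest weights of their groups. In fits of 2 groups, which have fewer samples to estimate the spread, the list had 8 calls in COMB against LPS, 11 in COMB against HPO, 9 in LPS against CTL and 2 in HPO against CTL. Leaving out 1 pool at a time gave 19 to 31 calls in COMB against CTL, 9 to 21 in COMB against LPS, 16 to 27 in COMB against HPO, 1 to 7 in LPS against CTL and 0 to 2 in HPO against CTL, 3 enzymes called each time, and 0 to 1 of the 12 within-group correlations. Uncalled differences near 0 turned sign: Cyp1a1 to 0.13 without COMB pool 1 (range -0.23 to 0.13), Cyp4b1 to 0.012 without COMB pool 3 (range -0.26 to 0.012) and Ephx1 to 0.039 without COMB pool 3 (range -0.25 to 0.039). The cause of these changes was not tested.

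CTL and LPS pools share rat numbers, which name no common animal. With the replicate number of the pools as a block, LPS against CTL had 6 list calls, against 9 in the same 2 groups with no block. The replicate number follows the shared rat numbers only in part: CTL pool 2 and LPS pool 1 share number 6 but not a block. Deviations of pools with the same replicate number correlated at 0.04, -0.0076 and -0.0016. Those of pools with different replicate numbers correlated at between -0.055 and 0.05. Such correlations cannot show whether pools share animals or handling. No other paired fit was possible because the other groups share fewer numbers.

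Each array pools 2 or 3 rats and each group has 3 arrays, so animals cannot be compared. Cyp1a1 and the third Fmo2 probe set lie near the dim end, where small changes are not resolved.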

Other observations

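Nfe2l2, the transcription factor NRF2 that acts on antioxidant elements, averaged 822 ± 73.7 in COMB, 524 ± 55.4 in LPS, 477 ± 67.2 in HPO and 581 ± 66.4 in CTL (SD, n = 3 pools each). It was called higher in COMB against LPS (log2 difference 0.65 ± 0.13, limma, adjusted p = 0.00883) and in COMB against HPO (0.79 ± 0.13, adjusted p = 0.00225). Nqo1, a quinone reductase that it is known to drive, averaged 399 ± 98.9 in COMB and 247 ± 31.1 in LPS (0.67 ± 0.18, limma, adjusted p = 0.0368). Its mean was 281 ± 33.2 in HPO and 345 ± 63.0 in CTL, and COMB was not called against CTL.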
